A study of Mus musculus with 12 samples.

Results

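The genes described here encode the nuclear subunits of the oxidative phosphorylation complexes. They were taken by name: every row whose symbol begins with Nduf and a, b, c, s or v and a digit, with Uqcr, with Cox4 to Cox8 or with Atp5, and the rows Sdha, Sdhb, Sdhc and Sdhd. The pattern matched 84 transcript rows and 82 gene symbols of 19012 in all, and the transcript with the longest exon length stood for each symbol. Of the 82, 79 name a subunit: 33 of complex I, 4 of complex II, 7 of complex III, 20 of complex IV and 15 of complex V. The other 3, Cox4nb (now Emc8), Atp5s (now Dmac2l) and Atp5sl (now Dmac2), share the letters but are not subunits of the complexes.

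Poly(A) RNA of the mouse small intestine was sequenced in 12 libraries. Freshly isolated crypts were taken from duodenum, jejunum and ileum, with 2 libraries for each origin, which the labels number 1 and 2. Freshly isolated villi and organoids (mini-guts cultured for 12 weeks) came from the same 3 origins, with 1 library each. No strain, age, sex or genotype is given. Separate animals are not stated either, and p-values here describe only how far these particular samples scatter, which may be technical. Because villi and organoids have 1 library per origin, the 3 origins served as replicates of a tissue. Tissue and any joint preparation of its libraries cannot be told apart.

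Oxidative phosphorylation takes place in the inner mitochondrial membrane. Complex I accepts electrons from NADH and complex II from succinate, complex III passes them to cytochrome c, complex IV reduces oxygen, and complex V uses the resulting proton gradient to make ATP. Complex IV is unusual in that several subunits exist as paralogs, a widely used form and a form known from heart and skeletal muscle, lung or testis. In the intestine, dividing crypt cells give rise to absorptive enterocytes that move up the villus, and oxidative metabolism is commonly described as increasing along that path.

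The libraries held between 5268480 and 18591819 reads by the size of the RPKM steps (RPKM is reads per kilobase of exon, scaled to sequencing depth), and 44.3% to 75.8% of them fell in annotated genes. Enterocyte markers were highest in villi: the summed RPKM of 17 enterocyte genes was 52996 to 103410 in villi, 5616 to 8071 in organoids, 1054 to 2271 in the crypt libraries numbered 1 and 10029 to 25575 in those numbered 2. The enterocyte signal of the crypts therefore separated by library number at every origin. Summed Paneth cell genes reached 229 to 2529 in villi and 43410 to 97429 in organoids, with Defcr5 and Defcr23 at 0 in all 12. In crypts they reached 37332 to 143285 in number 1 and 6901 to 50418 in number 2, with an overlap. Stem cell genes summed to 523 to 1266 in number 1 and 144 to 500 in number 2, without overlap. They gave 623 to 794 in organoids and 21.2 to 45.5 in villi. Proliferation genes overlapped between the numbers, at 228 to 325 in number 1 and 243 to 571 in number 2. Lymphocyte marker signal was 87.7 to 222 in villi, 1.70 to 6.52 in crypts and 0.407 to 2.17 in organoids. Smooth muscle signal was 78.0 to 124 in villi and overlapped that of crypts (17.6 to 86.0), with 2.39 to 4.82 in organoids. Enteroendocrine signal was 930 to 2494 in organoids, 133 to 389 in crypts and 335 to 570 in villi. In such bulk samples, fewer cells of a type and less RNA per cell cannot be told apart.

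Promoter letters were not used by the name pattern. A RefSeq promoter (GRCm38.p6, 250 bases before to 50 after the start) was matched for 66 of the 82. The core motif of nuclear respiratory factor 1, a regulator of mitochondrial genes, GCGCA, any base and GCGC on either strand, stood in 16 of the 62 tested subunits with an entry, or 25.8%, against 11.5% of the 7607 tested genes with an entry. AAGATGGC, a core of the YY1 motif, stood in 16.1% against 5.3%. CCGGAAGT, a core of the GABP motif, stood in 8.1% against 8.9%. TCAAGGTCA, the motif of the estrogen-related receptors, stood in only 2 of the 62 subunits (3.2%), against 26 of the 7607 genes (0.3%). Each of these motifs was thus absent from most of the subunits' windows, the shares were not tested, and a match describes letters and not a bound site. For each complex with such a gene, the subunit of the highest mean RPKM whose NRF1 motif lies wholly before the start is shown, 80 bases read 5′ to 3′ on the strand of the gene, with 1 motif match in capitals: Ndufa8 at chr2:36049339-36049418, Sdhd at chr9:50603884-50603963, Cox6a1 at chr5:115349031-115349110 and Atp5k at chr5:108434405-108434484, all on the minus strand of GRCm38.p6.
Ndufa8: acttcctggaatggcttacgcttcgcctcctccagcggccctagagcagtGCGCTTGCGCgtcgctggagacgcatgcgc
Sdhd: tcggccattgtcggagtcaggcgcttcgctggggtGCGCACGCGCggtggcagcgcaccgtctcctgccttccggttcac
Cox6a1: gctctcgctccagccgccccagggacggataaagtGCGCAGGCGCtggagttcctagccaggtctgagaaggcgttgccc
Atp5k: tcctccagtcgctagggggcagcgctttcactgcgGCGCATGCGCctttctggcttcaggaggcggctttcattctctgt

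The complexes differed in how evenly their subunits were represented. Mean RPKM over the 12 libraries ran from 72.9 (Sdha, the flavoprotein of succinate dehydrogenase) to 288 (Sdhb, its iron-sulfur subunit), a 3.95-fold range, in complex II. In complex III it ran from 143 (Uqcrc2, a core protein) to 1279 (Uqcrh, the hinge protein), 8.94-fold. In complex I the range was 44.7-fold, from 20 (Ndufs1, the large iron-sulfur core subunit) to 896 (Ndufa6, an accessory subunit). Among the 14 tested genes of complex IV it was 191-fold, from 9.54 (Cox6b2) to 1827 (Cox8a, the widely used form of subunit VIII and the highest of all members). In complex V it was 368-fold, from 2.82 (Atp5g2) to 1038 (Atp5e, the epsilon subunit). Values, low ones above all, need care where reads can be shared with a pseudogene or another gene. Of the transcript's 50-base windows, 87.4% occur in another annotated gene for Atp5g2 and 84.8% for Atp5l. The share is 53.8% for Ndufa12, 53.0% for Cox7c, 50.5% for Atp5h and 50.3% for Atp5o. It is smaller for 39 other tested members, and none are shared for 31 of the 76.

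Summed over the 79 subunits, organoids stood highest. The sum was 52719 RPKM in the organoid library of the duodenum, 25516 in that of the jejunum and 37573 in that of the ileum. In crypts it was 15416 and 34018 (duodenum, numbers 1 and 2), 16984 and 25999 (jejunum), and 14407 and 29581 (ileum), and in villi it was 21673, 19943 and 18815. The means were 38603 ± 13631 (SD, n = 3) in organoids, 22734 ± 8256 (SD, n = 6) in crypts and 20143 ± 1440 (SD, n = 3) in villi, so organoids and crypts overlapped and villi lay between the crypt libraries numbered 1 and those numbered 2. That last order held in complexes IV and V and not in the other 3, where villi overlapped 1 or both sets. In complex IV the crypt libraries numbered 1 held 4121 to 5290 RPKM, villi 5974 to 7408 and the crypt libraries numbered 2 9324 to 10667. These orders are those of unscaled RPKM. With median-ratio scaling, which sets the typical gene equal in every library, the mean sum of the 79 was 36557 ± 16078 (SD) in organoids. It was then 20189 ± 4864 in crypts and 24279 ± 4402 in villi, so the villus mean stood above the crypt mean, within the spread.

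**Figure D1:**
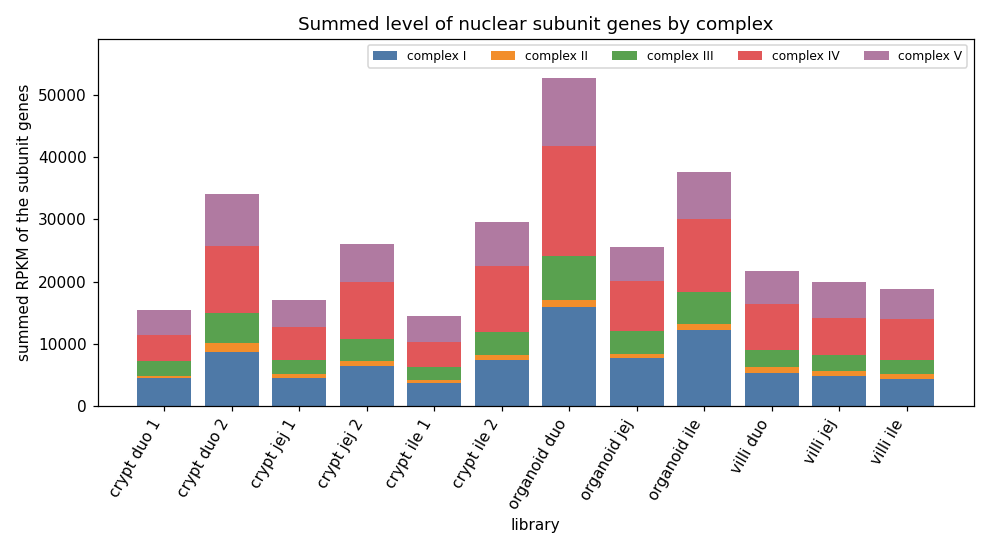
Summed RPKM of the 79 subunit genes (y axis) in each of the 12 libraries (x axis; crypt libraries carry their number), stacked by complex. The organoid library of the duodenum is highest at 52719 and the crypt library of the ileum numbered 1 lowest at 14407, and the crypt libraries numbered 2 stand above those numbered 1 at each origin.

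The 2 crypt libraries of an origin differed in most of these genes. Of 76 tested members, 70 were higher in number 2 in the duodenum, 62 in the jejunum and 72 in the ileum, with median differences of 1.32, 0.50 and 0.89 in log2(RPKM + 1), against 0.49, 0.00 and 0.11 over 11298 genes. Under median-ratio scaling, which sets the typical gene equal in every library, the members' medians were 0.65, 0.45 and 0.69. Cox5a, a widely expressed subunit of complex IV, read 116 and 514 RPKM in the duodenum, 175 and 362 in the jejunum, and 133 and 406 in the ileum, number 1 first. The share of reads in annotated genes moved the same way, 44.3% to 52.3% in number 1 and 60.1% to 67.6% in number 2, as did the enterocyte markers. Their part in the difference was not tested.

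**Figure D2:**
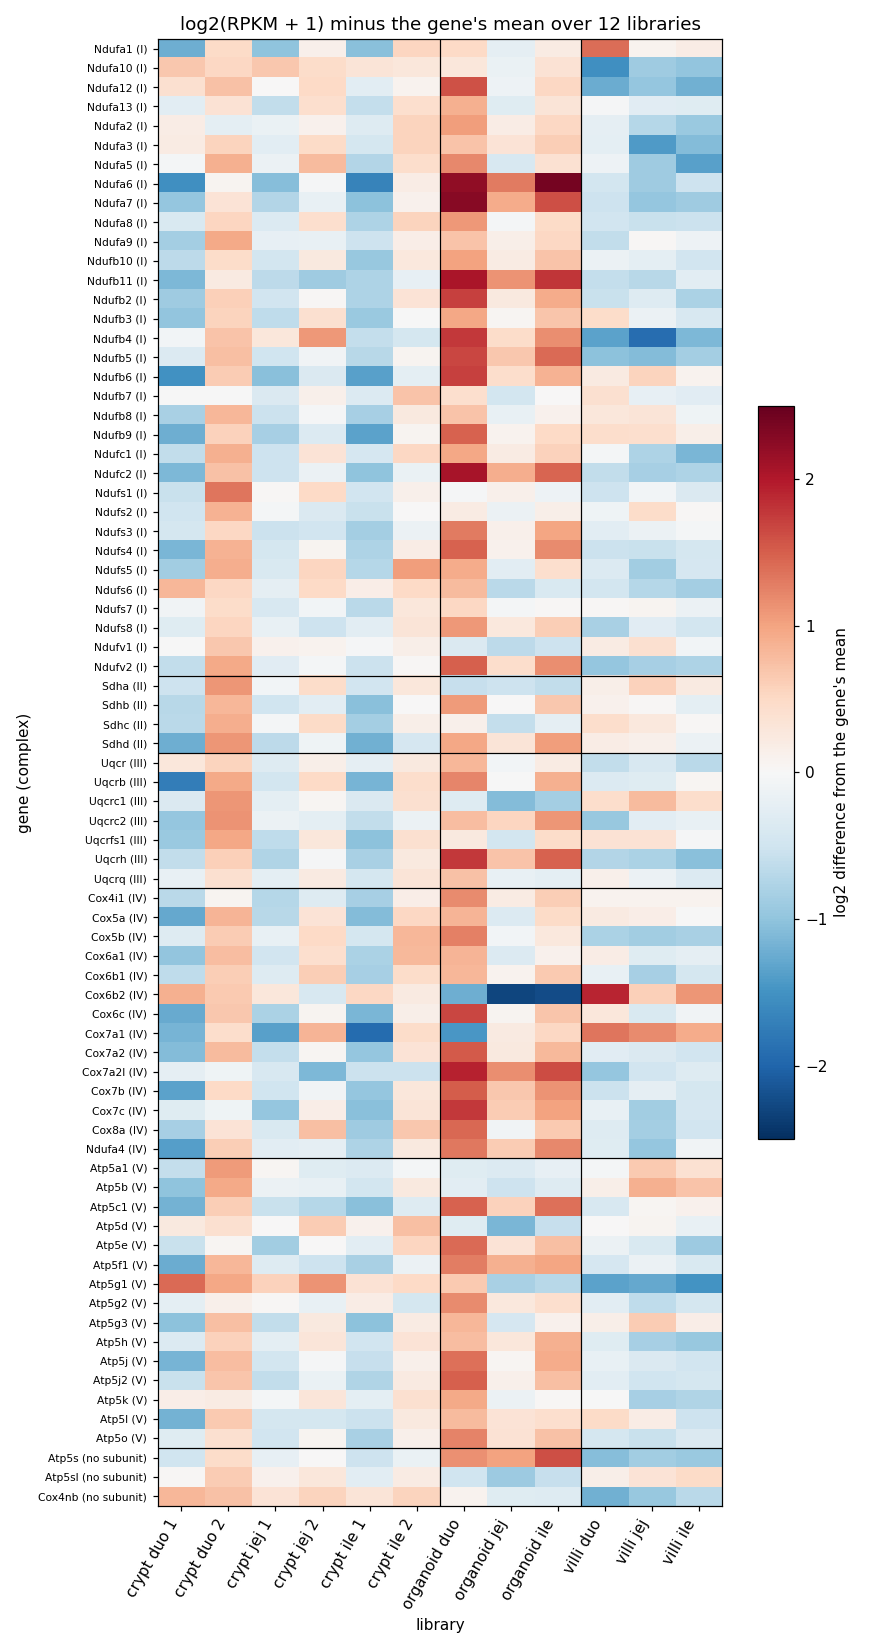
Each row is 1 of the 76 tested genes with its complex in brackets, each column a library, and the colour the log2(RPKM + 1) minus the mean of the gene over the 12 libraries. Most rows are higher in the crypt libraries numbered 2 than in those numbered 1, most are high in the organoid library of the duodenum, and Cox6b2, Cox7a1 and Atp5g1 break the pattern of their neighbours.

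Organoids against crypts asks how the cultured tissue differs from the fresh tissue it grows from. Of 76 members, 22 (28.9%) were higher and 6 (7.89%) lower in organoids at an adjusted p under 0.05 (limma on log2(RPKM + 1) with tissue and origin as terms, Benjamini-Hochberg over 11691 genes). Over all genes tested, 23.4% were higher and 24.2% lower. The members' median difference was 0.60 and that of all genes 0.00. The crypt numbers were taken to pair the libraries, which the labels do not state. With the number as a block 37 members were higher and 8 lower (all genes 27.9% and 28.2%). In limma-voom on recovered reads, which moves the median of all genes to -0.26, 26 members were higher and 9 lower (all genes 17.5% and 31.8%) with a median of 0.31. Enteroendocrine markers moved with the organoids too, 7 of 9 called higher than in crypts with a median of 2.01, and their part in the members' difference was not tested. By complex, 11 of 33 members rose and 1 fell in complex I, 1 of 4 rose in complex II, 1 of 7 in complex III, 4 rose and 1 fell of 14 in complex IV, and 4 rose and 2 fell of 15 in complex V. Counts rested on single libraries. Without the organoid library of the duodenum 10 members were higher, beside 2241 of all 11691 genes. Without that of the ileum 10 were higher and 3 lower (all genes 1756 and 1818). In both fits the share of members called higher was under that of all genes. Without that of the jejunum it was over it, with 20 higher and 2 lower (all genes 2071 and 2479). The counts also moved with the crypt libraries used, an alternative added after the values were seen: 50 higher and 4 lower against the libraries numbered 1 (all genes 32.2% and 24.1%), and 16 higher and 9 lower against those numbered 2 (18.8% and 26.7%).

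Accessory subunits of complex I gave the largest rises. Ndufa6, an accessory subunit of the LYR protein family (mm9 chr15:82180592-82184666), read 2677, 1415 and 3039 RPKM in organoids of duodenum, jejunum and ileum, against 181 to 656 in crypts with a median of 420 and 312 to 419 in villi. Every organoid library lay above every crypt and villus library, and the log2 difference from crypts was 2.64 ± 0.51 (SE, limma adjusted p = 0.00107). Ndufb11, an X-linked accessory subunit, read 850, 446 and 715 RPKM in organoids and 94.1 to 240 in crypts, with a median of 125. Its difference was 2.22 ± 0.34 (SE, limma adjusted p = 0.000238), again without overlap. Of the classes of complex I, 9 of 26 accessory subunits rose and none fell, with a median of 0.56, and of the 7 core subunits, which carry the electron path, Ndufs3 and Ndufv2 rose and Ndufv1 fell, with a median of 0.25. The classes were not compared by a test, and their median exon lengths were 541.5 and 1472 bases. Over all genes tested, 23.4% were higher and 24.2% lower. Of the 272 genes with under 600 bases of exon, 123 were higher and 33 lower, with a median of 0.90. Without the organoid library of the duodenum or of the ileum, Ndufs3 and Ndufv2 were not called. Ndufv1, which binds NADH and the flavin, read 63.3, 51.6 and 57.0 RPKM in organoids, below all 6 crypt libraries (79.4 to 130), with a difference of -0.67 ± 0.25 (SE, limma adjusted p = 0.0421). That small fall was lost in 9 of the 12 fits that left out 1 library each.

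The 4 genes of complex II did not move together. Sdhd, a membrane anchor, read 368, 234 and 385 RPKM in organoids and 80.1 to 404 in crypts (median 129), a rise of 1.19 ± 0.45 (SE, limma adjusted p = 0.0429) with overlapping groups. That call was lost in 10 of the 12 fits that left out 1 library, all but those without number 2 of the duodenum or jejunum crypts, and without a filter or against the crypt libraries numbered 2 only. Sdha read 45.3, 47.1 and 43.7 RPKM in organoids and 46.9 to 147 in crypts, and its difference of -0.70 ± 0.34 (SE) did not pass at a limma adjusted p of 0.112, although it did with the block (0.0132), under median-ratio scaling (0.0438) and in voom (0.00636). Sdhb, the iron-sulfur subunit, differed by 0.86 and did not pass in this fit. With the block and under median-ratio scaling, 2 of the 4 genes were called higher, Sdhb and Sdhd. Sdhc, the other anchor, differed by -0.22 and did not pass. In complex III, Uqcrh rose by 1.55 ± 0.44 (SE, limma adjusted p = 0.0119), with 3499, 1689 and 2835 RPKM in organoids, all above the 585 to 1547 of crypts, but was not called without the organoid library of the duodenum or of the ileum. Uqcrc1, a core protein, read 110, 64.4 and 75.1 against 107 to 295 and did not pass in this fit (-0.85, adjusted p = 0.0615, or 0.00876 with the block).

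In complex IV the largest rise was that of Cox7a2l, which is known for joining complexes III and IV into supercomplexes. It read 527, 310 and 430 RPKM in organoids, 62.8 to 128 in crypts and 70.4 to 111 in villi, and the organoids stood apart from both. The difference from crypts was 2.06 ± 0.30 (SE, limma adjusted p = 0.000174). Cox7c, a small widely expressed subunit, read 182, 82.8 and 107 RPKM in organoids, all above the 24.9 to 66.5 of crypts, and rose by 1.46 ± 0.34 (SE, limma adjusted p = 0.00385), Cox7b and Ndufa4 rose as well, except without the organoid library of the duodenum or of the ileum, and Cox6b2 fell. In complex V, Atp5c1, the gamma subunit of the rotor, read 528, 285 and 498 RPKM in organoids and 83.5 to 293 in crypts (median 123), a rise of 1.68 ± 0.40 (SE, limma adjusted p = 0.00425) with a small overlap. Atp5f1, a subunit of the peripheral stalk, read 203, 153 and 164 RPKM against 34.5 to 147, without overlap, and rose by 1.42 ± 0.38 (SE, limma adjusted p = 0.00798). Atp5o, another stalk subunit, and Atp5g2 also rose. Atp5o was not called in 8 of the 12 fits that left out 1 library (any organoid library, any crypt library numbered 1, or the villus library of the jejunum or ileum), nor against the crypt libraries numbered 2 only. Atp5d, the delta subunit, read 547, 305 and 452 RPKM against 683 to 1135 and fell by 1.04 on the log2 scale, without overlap (SE 0.36, limma adjusted p = 0.0315). That call was lost without either crypt library of the jejunum, number 2 of the ileum crypts, or the organoid library of the jejunum or ileum, and against the crypt libraries numbered 1 only.

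Exon length moved with the same difference. Across all 11691 genes, those with under 600 bases of exon had a median organoid-crypt difference of 0.90 (n = 272), those of 600 to 1000 bases 0.92 (n = 690) and longer ones -0.04 (n = 10729). The members' medians in those classes were 0.60 (n = 34), 0.88 (n = 18) and 0.20 (n = 24), so the members lay below or near other genes of their length in the short classes. Across genes the Pearson r of the difference with length was -0.33 over the 76 members and -0.28 over all genes, which are not independent replicates. Its part in the counts above was not tested.

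**Figure D3:**
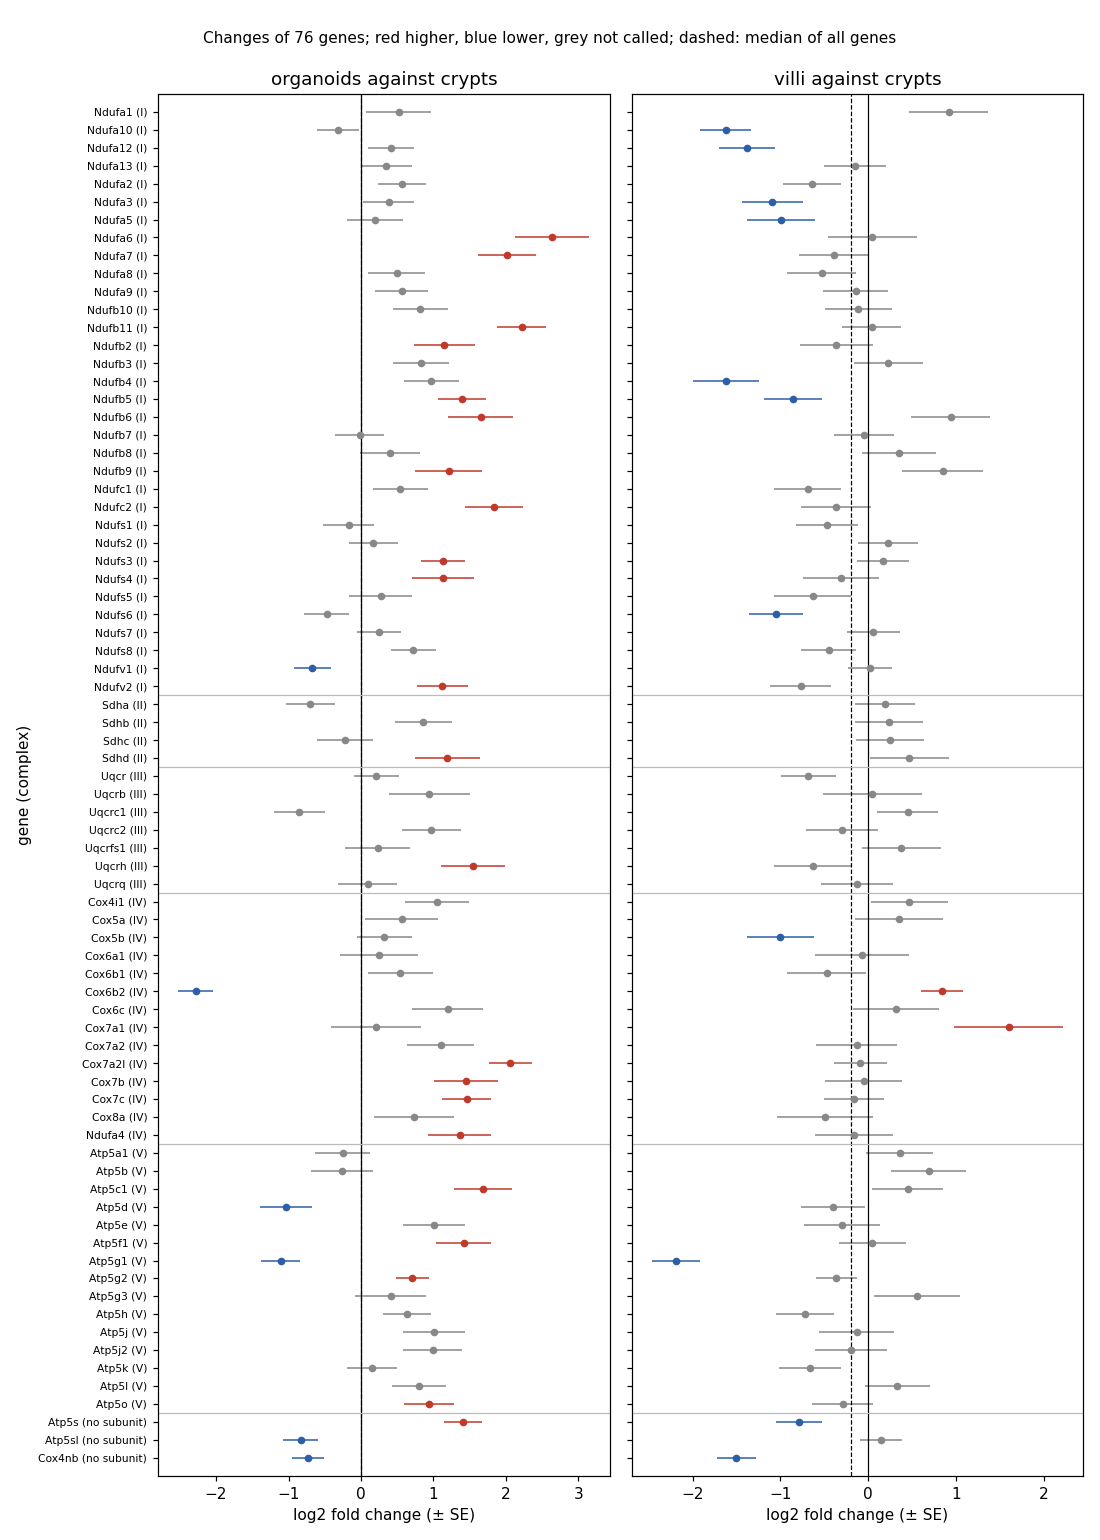
Log2 differences with their SE (x axis) for the 76 tested genes (y axis, complex in brackets) in organoids against crypts and in villi against crypts, which share the 6 crypt libraries; red and blue mark genes called higher and lower, and the dashed line is the median of all genes. Most points of the first panel lie right of 0, led by Ndufa6 at 2.64, and the second panel scatters around the dashed line with Atp5g1 lowest at -2.19.

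Villi against crypts asks what differs between the absorptive and the proliferative compartment. Only 2 members (2.63%) were higher in villi and 11 (14.5%) lower, against 20.5% and 32.8% of all genes, so the share called was under the background in both directions. The members' median was -0.14 and that of all genes -0.20. Scaling shifted that median of all genes: under median-ratio scaling it was 0.03, the members' median was 0.25, and 9 members were higher and 6 lower (all genes 31.3% and 25.7%). In voom the median was -0.69 for all genes and -0.51 for the members, and 0 were higher and 28 lower (all genes 15.3% and 44.3%). With the crypt number as a block 5 were higher and 17 lower (all genes 23.9% and 36.1%). The sign of the median turned with the crypt libraries used. Against those numbered 1 only, 17 members were higher and 7 lower (all genes 27.7% and 33.5%) with a median of 0.27. Against those numbered 2 only, 1 was higher and 25 lower (all genes 15.7% and 32.4%) with a median of -0.63. Leaving out the villus library of the duodenum, jejunum or ileum left 6, 6 or 5 members lower and 0, 1 or 1 higher. Over all 11691 genes those fits gave 2748, 2962 or 3251 lower and 1863, 1804 or 1789 higher. In the main fit, members under 600 bases of exon had a median of -0.37 with 6 of 34 lower, beside -1.14 and 155 of 272 genes. At 600 to 1000 bases it was -0.12 with 1 of 18 lower, beside -0.50 and 275 of 690. Above that it was 0.04 with 4 of 24 lower, beside -0.17 and 3405 of 10729. The part of length was not tested here either.

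Of the 11 that were lower, 6 passed in the same direction under all 3 scalings: Atp5g1, Ndufa10, Ndufa12 and Ndufb4, and the non-subunits Atp5s and Cox4nb. No member was higher under all 3. How many of all genes pass all 3 was not counted, so these counts have no background beside them. Atp5s was not called without any 1 of the villus libraries. Ndufa10, an accessory subunit of complex I (mm9 chr1:94336295-94370334), read 57.9, 90.4 and 84.7 RPKM in villi of duodenum, jejunum and ileum, 207 to 271 in crypts (median 237) and 151 to 217 in organoids. Villi lay below all other libraries, and the difference from crypts was -1.62 ± 0.29 (SE, limma adjusted p = 0.000457). Unlike most members, Ndufa10 did not separate the crypt libraries by number: those numbered 1 read 271, 269 and 210, and those numbered 2 read 242, 231 and 207. Ndufb4, an accessory subunit of the membrane arm, was lower at 7.40, 4.64 and 8.72 RPKM in villi against 13.1 to 43.8 in crypts, a difference of -1.62 ± 0.38 (SE, limma adjusted p = 0.0032). Ndufa12 read 40.7, 49.8 and 41.9 RPKM against 82.1 to 163 and differed by -1.38 ± 0.32 (SE, limma adjusted p = 0.00309). Cox5b, a nuclear subunit of complex IV that binds zinc, read 104, 98.1 and 102 RPKM in villi, all below the 134 to 322 of crypts. Its call was lost in 8 of the 12 fits that left out 1 library: any villus library, the organoid library of the ileum, either crypt library of the jejunum, or number 2 of the duodenum or ileum crypts. Ndufa3, Ndufa5, Ndufb5, Ndufs6 and Cox5b were lower by 0.86 to 1.09 and were not called under median-ratio scaling. The 7 complex I genes called lower are among the 26 accessory subunits, a share under the 32.8% of all genes, and 0 of the 7 core subunits were called. The 2 classes were not compared by a test.

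In the main fit, complexes II, III and V had few calls. In complex II the differences were 0.19 for Sdha, 0.24 for Sdhb, 0.25 for Sdhc and 0.47 for Sdhd, none called, with adjusted p from 0.395 to 0.657. Sdha read 75.0, 102 and 79.7 RPKM in villi against 46.9 to 147 in crypts, inside the crypt range. In complex III no member was called in that fit, and the difference of Uqcr, a small accessory subunit, was -0.68 (limma adjusted p = 0.079, 0.021 with the block). Under median-ratio scaling 1 of the 7 members of complex III was higher (all genes 31.3%). In complex V, Atp5g1 was lower and the catalytic beta subunit Atp5b, at 574, 960 and 848 RPKM in villi against 256 to 1002 in crypts, differed by 0.69 ± 0.43 (SE) and was not called (limma adjusted p = 0.197), except under median-ratio scaling (0.0205). Of the 15 members of complex V, 2 were higher and 1 lower under that scaling (all genes 31.3% and 25.7%). With the block 0 were higher and 3 lower (all genes 23.9% and 36.1%).

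**Figure D4:**
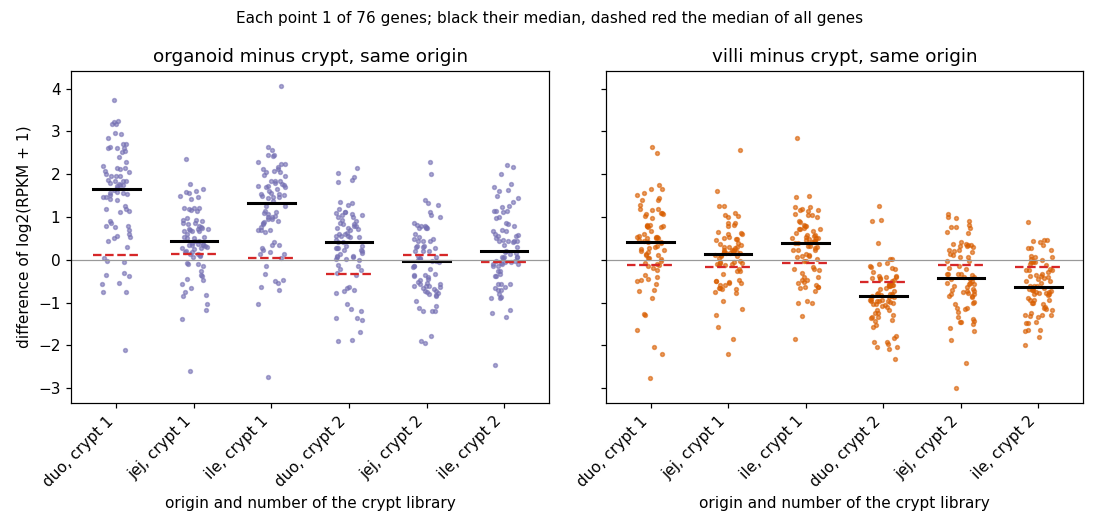
Difference of log2(RPKM + 1) between the organoid (left) or villus (right) library and each crypt library of the same origin (x axis) for the 76 tested genes (points), with their median in black and the median of all genes in dashed red. Against number 1 the members' medians are above 0 in all 3 origins in both panels, and against number 2 the villus medians are -0.85, -0.42 and -0.64.

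Origin by origin, 57 of 76 members (75.0%) were higher in the organoids than in crypt library 1 at all 3 origins, against 40.5% of all genes, and 29 (38.2%) were higher than in crypt library 2, against 26.3%. For villi, 39 (51.3%, all genes 35.5%) were higher than crypt library 1 at all 3 origins. Against crypt library 2, 2 members (2.6%, all genes 23.8%) were higher and 46 of 76 lower at all 3, where 5640 of 11691 genes were lower. 

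Villi against organoids, whose means use no crypt library, gave 3 members higher and 35 (46.1% of 76) lower, against 25.8% and 36.1% of all genes, with a median of -0.95 (all genes -0.22). Exon length moved with this difference too. Under 600 bases 18 of 34 members were lower, beside 190 of 272 genes. At 600 to 1000 bases 7 of 18 were, beside 420 of 690, and above that 10 of 24, beside 3616 of 10729. The members were thus lower less often than other genes of their length in the short classes. The part of length was not tested. With the block 7 were higher and 45 lower (all genes 28.6% and 39.1%), and under median-ratio scaling 9 and 24 (32.9% and 31.4%), where the median of all genes was 0.01 and that of the members -0.58. By complex, 17 of 33 members were lower in complex I, 0 of 4 in complex II, 3 of 7 in complex III, 5 of 14 in complex IV and 8 of 15 in complex V. Under all 3 scalings 24 were lower and 3 higher, namely Uqcrc1, Cox6b2 and the non-subunit Atp5sl. The share of all genes that pass all 3 was not counted, so these counts cannot be set against a background. Uqcrc1 read 185, 237 and 187 RPKM in villi and 110, 64.4 and 75.1 in organoids, a difference of 1.30 ± 0.40 (SE, limma adjusted p = 0.0131), lost without the organoid or the villus library of the jejunum. The other core protein of complex III, Uqcrc2, went the other way, at 65.4, 105 and 112 RPKM in villi and 217, 184 and 273 in organoids (-1.27 ± 0.48 SE, limma adjusted p = 0.0338, 0.0556 under median-ratio scaling), a call lost without any 1 of the organoid or villus libraries. Ndufb4, at 7.40, 4.64 and 8.72 RPKM in villi and 71.2, 28.2 and 46.4 in organoids, gave -2.59 ± 0.44 (SE, limma adjusted p = 0.000235). These groups did not overlap, nor did those of Atp5h, a peripheral stalk subunit, at 167, 115 and 106 against 353, 251 and 385 (-1.35 ± 0.38 SE, limma adjusted p = 0.00808, not called without the organoid library of the ileum). Without the organoid library of the duodenum or ileum, 16 or 21 members were lower (3953 or 3711 of all 11691 genes). Without the villus library of the duodenum or ileum 19 or 22 were (all genes 3510 or 3843). In these fits the share of members called lower was under that of all genes. Without the organoid or villus library of the jejunum it was over it, at 34 or 29 (all genes 3620 or 3647). Without the crypt library of the duodenum numbered 1 or 2, 5 or 6 members were higher (all genes 3138 or 3203).

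Paralogs of complex IV split into a high and a low or absent form. Cox4i1, Cox6a1, Cox7b, Cox8a and Ndufa4 averaged 410 to 1827 RPKM, and their counterparts Cox4i2 (known from lung), Cox6a2 and Cox8b (heart and muscle), Cox7b2 and Cox8c (testis) and Ndufa4l2 (induced by low oxygen) stayed at or under 1.30 RPKM in every library and were not tested. Cox8a read 4340, 1509 and 2505 RPKM in organoids, 863 to 2683 in crypts and 1288, 883 and 1152 in villi, and was called in no tissue comparison. Cox7b2 and Cox8c were listed at 0 in all 12. The count of CG dinucleotides in the 300-base promoter window followed no single order between such forms, with a median of 22 over tested genes with an entry. It was 7 for Cox7a1 and 20 for Cox7a2, 2 for Cox8b and 19 for Cox8a, and 10 for Cox6b2 and 17 for Cox6b1, but 10 for Cox7b2 and 5 for the widely used Cox7b. The 80 bases before the start are shown for the 2 pairs that set a muscle form beside its widely used counterpart, CG in capitals, on the strand of the gene in GRCm38.p6: Cox7a1 at chr7:30184091-30184170 (plus), Cox7a2 at chr9:79759854-79759933 (minus), Cox8b at chr7:140900447-140900526 (minus) and Cox8a at chr19:7217617-7217696 (minus). They hold 2 and 7 CG in the first pair and 0 and 8 in the second.
Cox7a1: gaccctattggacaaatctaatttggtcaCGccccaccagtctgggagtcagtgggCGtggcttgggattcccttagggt
Cox7a2: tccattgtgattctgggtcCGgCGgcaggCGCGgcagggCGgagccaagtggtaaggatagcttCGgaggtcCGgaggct
Cox8b: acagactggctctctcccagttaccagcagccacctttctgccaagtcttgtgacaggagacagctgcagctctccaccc
Cox8a: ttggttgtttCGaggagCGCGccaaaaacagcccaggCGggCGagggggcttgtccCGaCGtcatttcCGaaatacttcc

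Cox7a1, the form of subunit VIIa known from heart and skeletal muscle, was the exception to that split (mm9 chr7:30969189-30971048). It read 284, 257 and 214 RPKM in villi of duodenum, jejunum and ileum, and 40.1, 131 and 160 in organoids. In crypts it read 49.8, 42.9 and 28.7 in the libraries numbered 1 and 152, 202 and 154 in those numbered 2. All 3 villus libraries lay above all crypt and organoid libraries, the sole member higher in villi than in crypts without overlap (1 of 76, all genes 16.7%). The difference from crypts was 1.60 ± 0.62 (SE, limma adjusted p = 0.0442, 0.00117 with the block), and it was no longer called in voom (0.0616) or against the crypt libraries numbered 2 only. It was also lost in 7 of the 12 fits that left out 1 library: any villus library, any crypt library numbered 1, or the organoid library of the jejunum. Its paralog Cox7a2 read 302, 289 and 265 RPKM in villi, so the ratio of Cox7a1 to Cox7a2 was 81.0% to 94.0% there, against 15.2% to 52.8% in crypts and 3.76% to 29.8% in organoids. The smooth muscle markers summed to 78.0 to 124 in villi, 33.6 to 86.0 in the crypt libraries numbered 2, 17.6 to 31.3 in those numbered 1 and 2.39 to 4.82 in organoids, with Cox6a2 and Cox8b at or under 1.30 RPKM, and the part of muscle cells in the Cox7a1 level was not tested.

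Cox6b2, the testis form of subunit VIb (mm9 chr7:4703395-4704695), was low in all tissues but differed between each pair. It read 2.35, 0.586 and 0.658 RPKM in organoids, 4.90 to 13.4 in crypts (median 9.34) and 28.1, 10.8 and 15.7 in villi. The difference was -2.28 ± 0.24 (SE, limma adjusted p = 1.96e-05) in organoids against crypts and 3.12 ± 0.27 (SE, adjusted p = 2.63e-06) in villi against organoids, neither pair of groups overlapping. Villi against crypts gave 0.84 ± 0.24 (SE, adjusted p = 0.00934), with an overlap, and was not called in voom (0.114) or without the villus library of the duodenum. The widely used form Cox6b1 read 693 to 1165 RPKM in organoids, 368 to 1001 in crypts and 367 to 576 in villi and was called in neither comparison with crypts. Cox6b2 was thus 0.0642% to 0.201% of Cox6b1 in organoids, 0.490% to 3.20% in crypts and 2.94% to 4.89% in villi.

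The c subunit of complex V, which forms the rotor ring, is encoded by Atp5g1, Atp5g2 and Atp5g3, whose mature proteins are the same. The last 150 coding bases of the 3 genes (GENCODE M21 transcripts, coding strand, stop codon left out) show where reads of 50 bases can tell them apart, with the positions that differ between any of the 3 in capitals. They share 80.7% (Atp5g1 and Atp5g3), 84.0% (Atp5g1 and Atp5g2) and 78.0% (Atp5g2 and Atp5g3) of the bases, and the longest identical run of any pair is 20 bases.
Atp5g1: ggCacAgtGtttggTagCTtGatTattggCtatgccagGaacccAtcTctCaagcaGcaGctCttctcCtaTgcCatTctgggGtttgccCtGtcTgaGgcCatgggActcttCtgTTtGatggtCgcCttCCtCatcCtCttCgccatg
Atp5g2: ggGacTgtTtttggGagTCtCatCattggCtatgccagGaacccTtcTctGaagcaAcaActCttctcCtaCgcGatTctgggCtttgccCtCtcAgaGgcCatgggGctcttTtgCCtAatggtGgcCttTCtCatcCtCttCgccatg
Atp5g3: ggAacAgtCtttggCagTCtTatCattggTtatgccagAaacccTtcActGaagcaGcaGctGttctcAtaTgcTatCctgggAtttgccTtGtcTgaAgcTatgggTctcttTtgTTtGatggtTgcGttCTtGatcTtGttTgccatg

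Atp5g3 was the main form, with 842, 1171 and 845 RPKM in villi, 567 to 1344 in organoids and 371 to 1268 in crypts, and it was called in no tissue comparison. Atp5g1 (mm9 chr11:95930167-95936350) read 13.6 and 9.78 RPKM in crypts of the duodenum, 7.19 and 11.0 in those of the jejunum and 6 and 6.73 in those of the ileum. In organoids it read 7.65, 2.12 and 2.41, and in villi 1.16, 1.27 and 0.954, the lowest in the series without overlap with either tissue. The differences were -2.19 ± 0.27 (SE, limma adjusted p = 3.57e-05) in villi against crypts and -1.11 ± 0.27 (SE, adjusted p = 0.00495) in organoids against crypts. Atp5g2 stayed at 1.33 to 2.01 RPKM in villi, 1.65 to 3.11 in crypts and 3.33 to 7.14 in organoids. Its rise of 0.71 ± 0.23 (SE, limma adjusted p = 0.0216) in organoids against crypts was not called in voom (0.235), against the crypt libraries numbered 1 only, or without the organoid library of the duodenum or ileum. The level of Atp5g1 depends on the gene model: the longest transcript counts 4673 bases of exon, and another model of 570 bases on the same strand, LOC100041835, lies over it and holds 81.7% to 97.1% as many reads as Atp5g1 itself. That short model read 109 RPKM where Atp5g1 read 13.6 (crypt library 1 of the duodenum) and 7.77, 8.63 and 6.95 in villi.

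**Figure D5:**
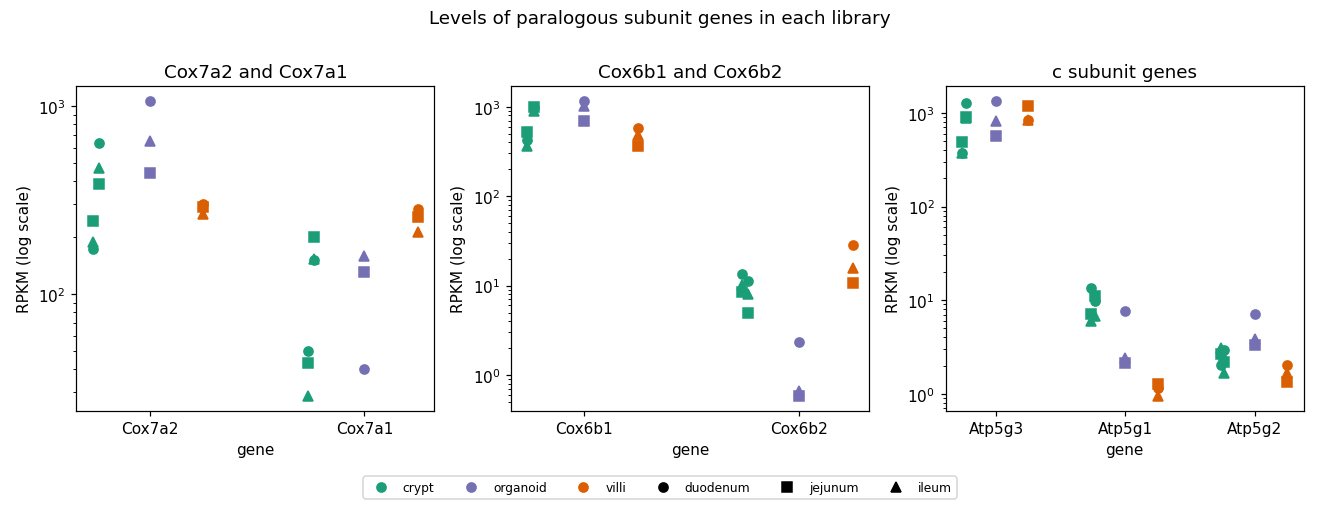
RPKM on a log scale (y axis) of paralogous subunit genes (x axis) in each library, coloured by tissue with the marker shape giving the origin. Cox7a1 comes nearest to Cox7a2 in villi (214 to 284 against 265 to 302), Cox6b2 is lowest in organoids, and Atp5g1 falls from 6 to 13.6 in crypts to 0.954 to 1.27 in villi while Atp5g3 stays between 371 and 1344 throughout.

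Within the paralog sets, the ratio of each other tested gene to the highest one (Cox7a2, Cox6b1 or Atp5g3) was compared between tissues. An exact two-sided permutation test over libraries was used, 15 tests of 5 pairs added after the values were seen. Cox7a1 to Cox7a2l and Atp5g1 to Atp5g2 were not compared. After Benjamini-Hochberg adjustment none passed 0.05. The smallest adjusted p of these exact permutation tests was 0.0595 (raw p = 0.0119, the smallest that 3 against 6 libraries allow), and 3 ratios reached it without overlap. They were Cox7a1 to Cox7a2 in villi against crypts (log2 difference 1.75, SD 0.11 in villi and 0.65 in crypts), Cox6b2 to Cox6b1 in organoids against crypts (-3.75, SD 0.86 and 1.02) and Atp5g1 to Atp5g3 in villi against crypts (-3.51, SD 0.19 and 0.84). With 3 villus and 3 organoid libraries the test cannot go below 0.1. Over 15 tests, 3 ratios at the smallest raw p for 3 against 6 libraries cannot pass 0.05 after adjustment. Their not passing therefore decides nothing about these ratios.

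The origins of the tissue, by contrast, gave no call among the members. No member passed in ileum or jejunum against duodenum, in ileum against jejunum, in ileum against duodenum within crypts, or in either test of whether that difference varies by tissue (limma, 76 members each). At an unadjusted p under 0.05 there were 2 in ileum against duodenum, 2 in jejunum against duodenum and 0 in the others. Background shares were low too, 0.47% higher and 0.205% lower in ileum against duodenum, 0% in jejunum against duodenum, 0.0342% and 0.00855% in ileum against jejunum, 0.0266% and 0.00885% within crypts and 0% in both tests of the variation by tissue. With the crypt number as a block, 0 members were called in jejunum against duodenum as well, where 0.077% of all genes were higher and 0.0342% lower. The smallest p values were those of Atp5g1 (-0.76 ± 0.27 SE, limma adjusted p = 0.353) and Cox6b2 (-0.65 ± 0.24 SE, limma adjusted p = 0.365) in ileum against duodenum. Most differences were negative, with 68 of 76 below 0 in ileum against duodenum (median -0.27, all genes 0.06) and 71 of 76 below 0 in jejunum against duodenum (median -0.35, all genes 0.04). Single libraries moved both medians. In ileum against duodenum it was -0.08 without crypt library 2 of the duodenum or library 1 of the ileum, -0.15 without the organoid library of the duodenum, -0.51 without crypt library 1 of the duodenum and -0.45 without crypt library 2 of the ileum. In jejunum against duodenum it was -0.15 without crypt library 2 of the duodenum, -0.19 without the organoid library of the duodenum or jejunum, and -0.60 without crypt library 1 of the duodenum. These contrasts share the duodenum libraries, which include the organoid library with the highest sum.

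Genes around the complexes gave a context, from lists drawn up with earlier results of these data known. Their counts read against 23.4% of all genes higher and 24.2% lower in organoids, and 20.5% higher and 32.8% lower in villi, each against crypts. Of 6 subunits or partners that the name pattern missed, 2010107E04Rik, a small subunit of complex V, read 3949, 1714 and 2702 RPKM in organoids, 289 to 1050 in crypts and 547 to 638 in villi (organoids against crypts 2.36 ± 0.48 SE, limma adjusted p = 0.00145). Cyc1, the cytochrome c1 of complex III, moved the other way at 218, 115 and 123 against 256 to 755 (-1.39 ± 0.40 SE, limma adjusted p = 0.0117). Of 23 assembly factors, 6 rose and 3 fell in organoids against crypts (median 0.15), and 0 rose and 10 fell in villi against crypts (median -0.54), or 3 and 10 under median-ratio scaling. Cox10, which makes heme for complex IV, fell in both, from 21.1 to 52.3 RPKM in crypts to 2.99 to 4.16 in organoids and 6.24 to 11.2 in villi. Of 17 genes of the citric acid cycle and pyruvate dehydrogenase, 2 rose and 4 fell in organoids and 3 rose and 5 fell in villi, each against crypts. The villus balance turned to 6 higher and 2 lower under median-ratio scaling, and was 5 and 5 with the block, and in organoids both gave 4 and 4. Citrate synthase (Cs) read 59.7 to 65.7 RPKM in organoids, 85.4 to 302 in crypts and 324 to 395 in villi, and was called lower in organoids (-1.36 ± 0.43 SE, limma adjusted p = 0.0203) and higher in villi (1.19 ± 0.43 SE, adjusted p = 0.0332).

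Among 17 regulators of mitochondrial genes, 3 rose and 8 fell in organoids and 2 rose and 9 fell in villi, each against crypts. Esrra, the estrogen-related receptor alpha, read 9.68, 7.27 and 5.63 RPKM in organoids, 23.3 to 47.3 in crypts and 108, 136 and 121 in villi, and the 3 tissues did not overlap. Ppard, a fatty acid receptor, read 1.72 to 2.02 in organoids against 32.3 to 57.6 in crypts (-3.88 ± 0.25 SE, limma adjusted p = 1.35e-06). Of 75 mitochondrial ribosomal proteins, 31 rose and 1 fell in organoids (median 0.64), and 0 rose and 50 fell in villi (median -1.07). Of 85 cytosolic ribosomal proteins, which are also short genes, 66 rose and 4 fell in organoids (median 1.44), and 3 rose and 75 fell in villi (median -2). Of 16 glycolytic genes, 2 rose and 5 fell in organoids and 3 rose and 2 fell in villi (7 and 2 with the block or under median-ratio scaling). Of 11 mitochondrial carriers and channels, 1 rose and 1 fell in organoids and 1 rose and 2 fell in villi (6 and 2 with the block, 7 and 2 under median-ratio scaling).

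The 3 non-subunits that share the name pattern were low. Cox4nb, part of a membrane protein complex of the endoplasmic reticulum, read 8.29 to 12.3 RPKM in crypts, 4.96 to 6.93 in organoids and 2.23 to 3.65 in villi, with no overlap between tissues (villi against crypts -1.50 ± 0.22 SE, limma adjusted p = 0.000146). Atp5s read 7.24 to 11.6 RPKM in organoids, 1.88 to 4.64 in crypts and 0.977 to 1.26 in villi, again without overlap. Atp5sl read 10 to 13.7 in organoids, below the 16.4 to 31.4 of crypts and the 22.1 to 27.9 of villi. In organoids against crypts, Atp5sl was not called without the organoid library of the jejunum, nor Cox4nb without that of the jejunum or ileum.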

How the data were processed

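The deposited tables give RPKM for each transcript, 1 table per library (file headers). Reads (poly(A) RNA) were aligned with BWA to mm9, per the submitters' processing notes. Not given in the sources used here: software versions, gene models and the counting rule, strandedness included. Reads of near-identical, overlapping or antisense genes may be shared. Read depth was recovered from the RPKM steps: at least 99.9535% of values came out whole within 0.02 reads. Tests used limma 3.58.1 in R 4.3.3 on log2(RPKM + 1), its prior variance following mean expression, on genes that reach 10 reads at median depth in enough libraries (3, 2 in crypts alone or 1 for tests of variation by tissue) and 15 in total, with Benjamini-Hochberg adjustment at 0.05. The added 1 understates fold changes of low genes. The design assumed raw counts, but the unit was RPKM, and the test for normalised values was used. All 12 libraries shared 1 spread. In the model with 9 means, single villus and organoid libraries were assumed to vary like crypt libraries. The differences between crypt libraries 2 and 1 correlated at 0.42, 0.51 and 0.79 between origins, so the numbers were taken to pair them. Named were the highest member of each complex, up to 2 called members per complex and direction in tissue comparisons, the smallest p values between origins, all paralog sets and the Sdh genes. Cox5a, Atp5b, Uqcr, the subunit classes, the paralog ratio test and the fits by crypt number were chosen after values were seen. Members and lists were chosen with earlier results of these data known.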

Additional observations from a re-analysis of the deposited data

How the results depend on the processing

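Alternatives were pseudocounts of 0.1 and 5, no filter, median-ratio scaling, limma-voom on recovered reads, the replicate block, the transcript with the highest mean, averaged crypt replicates and leaving out each library. Crypt libraries numbered 1 or 2 alone were added after the values were seen. No member changed sign with a call: of 79 calls in the tissue comparisons, 34 held under every alternative run, 45 were lost under at least 1 and 0 reversed. In villi against crypts (2 higher, 11 lower), median-ratio scaling gave 9 and 6, voom 0 and 28, the replicate block 5 and 17, averaged crypts 5 higher, crypts numbered 1 alone 17 and 7, crypts numbered 2 alone 1 and 25, and leaving out 1 library 0 to 4 higher and 5 to 14 lower. In organoids against crypts (22 and 6), the replicate block gave 37 higher, averaged crypts 36, crypts numbered 1 alone 50, and leaving out 1 library 10 to 32 higher and 2 to 8 lower. In villi against organoids (3 and 35), 6 were higher without a filter, 9 with median-ratio scaling, 5 in voom, 7 with the replicate block and 7 with averaged crypts, and leaving out 1 library gave 2 to 6 higher and 16 to 37 lower. Over all 11691 genes, leaving out 1 library gave 1789 to 2829 higher and 2748 to 4031 lower in villi against crypts. In organoids against crypts it gave 1756 to 3537 higher and 1818 to 2936 lower. In villi against organoids it gave 2516 to 3203 higher and 3510 to 4520 lower. The cause of these shifts was not tested. The crypt numbers were taken to pair the libraries, which the labels do not state, and the block changed no member's call between origins. The comparisons of origins kept 0 members under every alternative run. Depth limits the lowest members most: 1 read is worth 0.0538 to 0.19 RPKM in 1 kilobase of exon.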
